A study of Mus musculus with 8 samples.

Results

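The genes described here encode the machinery that carries proteins into mitochondria and folds them there. All genes whose symbol starts with Timm or Tomm were taken, together with Hspd1, Hspe1, Hspa9, Grpel1, Pmpca and Pmpcb. This gave 33 members among the 32285 genes of the deposited matrices, of which 16 start with Timm, 11 start with Tomm and 6 were named. The choice used symbols and no measured value. Of the 33 members, 30 passed the filter on low counts in every fit, and the counts of members given below are over these 30. Tomm20l, Timm8a2 and Tomm6os did not pass, with 41, 18 and 18 unique molecular identifiers (UMIs, each tagging 1 captured RNA molecule) in all and at most 0.821 counts per 1e6 UMIs (CPM) in any sample.

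The study measured RNA in single mouse CD8 T cells after contact with bone marrow stromal cells (BMSCs). Activated CD8 T cells of 3 donor mice were grown with BMSCs whose mitochondria carried the red protein dsRed, and were sorted into dsRed-bearing cells (MitoPositive) and cells lacking dsRed (MitoNegative). Both arms were either sequenced directly from culture (day 0) or transferred into B6 mice bearing B16KVP tumors and recovered 7 days later from spleen and tumor. With 3 donors in each of 6 groups (culture, spleen and tumor, each MitoPositive and MitoNegative) there were 18 samples, told apart within libraries by hashtag antibodies. MitoPositive and MitoNegative describe the cells at the sort, so at day 7 they name the arm that was transferred. All 6 groups share activation and the stromal co-culture, and both arms were sorted. The culture samples were in 1 library, and at day 7 each donor had a library of its own that held spleen and tumor cells of both arms. At day 7 separate recipient mice carried the 2 arms of each donor, and an arm's spleen and tumor samples were taken from the same recipients. The genotype and age of the T cell donors were not stated in the sources used here.

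UMIs were summed over 16364 cells. Samples held 30 to 3421 cells and 323344 to 26516196 UMIs. The smallest were the MitoNegative tumor sample of donor 1 with 30 cells and the MitoPositive spleen sample of donor 3 with 49 cells. Median UMIs per cell were 5875 to 8599 in culture, 5288 to 7307 in spleen and 10067 to 21063.5 in tumor. Clusters were kept by UMIs of the T cell receptor complex, so Cd3e, a T cell receptor chain partner, is no check of the label. It averaged 704 CPM in culture, 709 CPM in spleen and 690 CPM in tumor. Cd8a, which played no part in that choice, averaged 463, 391 and 342 CPM, and Cd8b1 averaged 1280, 1270 and 518 CPM. The labels conflict on which culture hashtags mark MitoPositive cells, and the map used (odd numbers) is the one of the series design and the hashtag list. Libraries shared 1 to 9 cell barcodes.

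Nearly all mitochondrial proteins are made in the cytosol and enter through the TOM complex of the outer membrane. TIM23 then passes those with a presequence to the matrix, where a motor built on the Hsp70 chaperone Hspa9 pulls them in, the processing peptidase removes the presequence, and the Hspd1 and Hspe1 chaperonin folds them. TIM22 inserts carrier proteins into the inner membrane, and small TIM chaperones escort such proteins across the space between the membranes. In T cells, activation is known to enlarge the mitochondria and to remodel their protein content.

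Hspd1 (Hsp60, the chaperonin barrel) and Hspe1 (Hsp10, its lid) lie head to head on mouse chromosome 1 in build mm10. Hspd1 spans chr1:55077835-55088243 on the minus strand and Hspe1 spans chr1:55088132-55091307 on the plus strand, so their annotated ends overlap. Reads in the overlap could be split between them, although 3' counting reads mostly the far ends. The promoter windows below (RefSeq, GRCm38.p6, from 250 bases before to 50 bases after the transcription start, 5' to 3' on the gene's own strand) are shown for the chaperonin pair and for Timm8a1, the member with the largest fold change between culture and tumor, which was added after its values were seen. In the Hspe1 window (chr1:55087898-55088197, plus strand), capitals mark a run of heat shock element cores, GAANNTTC and TTCNNGAA, that overlap each other. In the Hspd1 window (chr1:55088194-55088493, minus strand) and the Timm8a1 window (chrX:134541621-134541920, minus strand), capitals mark the E-box CACGTG.
Hspe1: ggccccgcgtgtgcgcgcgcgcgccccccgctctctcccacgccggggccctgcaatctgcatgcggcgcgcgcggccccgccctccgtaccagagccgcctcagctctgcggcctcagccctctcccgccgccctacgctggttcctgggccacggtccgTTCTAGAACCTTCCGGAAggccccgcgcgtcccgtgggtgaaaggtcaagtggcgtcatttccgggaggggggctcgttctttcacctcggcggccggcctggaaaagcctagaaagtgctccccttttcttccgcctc
Hspd1: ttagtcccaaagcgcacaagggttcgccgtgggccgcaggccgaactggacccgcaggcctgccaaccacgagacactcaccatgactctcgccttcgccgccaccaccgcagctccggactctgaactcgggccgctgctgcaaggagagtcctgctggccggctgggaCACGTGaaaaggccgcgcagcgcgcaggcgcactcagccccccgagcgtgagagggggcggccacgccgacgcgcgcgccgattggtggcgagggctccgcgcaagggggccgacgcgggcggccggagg
Timm8a1: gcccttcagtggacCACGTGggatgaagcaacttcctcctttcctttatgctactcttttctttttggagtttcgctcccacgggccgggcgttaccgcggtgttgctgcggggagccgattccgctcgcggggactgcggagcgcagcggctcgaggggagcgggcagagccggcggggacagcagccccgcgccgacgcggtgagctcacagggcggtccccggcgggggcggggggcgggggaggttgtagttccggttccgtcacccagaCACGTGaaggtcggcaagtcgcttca

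In the Hspe1 window, TTCNNGAA was found 2 times and GAANNTTC 1 time, starting 79 to 89 bases before the transcription start. A second annotated Hspd1 window (chr1:55087883-55088182) shares 285 bases with that of Hspe1 and holds the same run, whereas the Hspd1 window printed above shares 4 bases and has no such core. RefSeq windows were found for 29 of the 33 members, 32 windows in all. Among them 3 held GAANNTTC, 9 held TTCNNGAA and 7 held CACGTG. Of 32851 windows of the same length over all genes, 7.86% held GAANNTTC, 8.52% held TTCNNGAA and 7.15% held CACGTG, with both strands searched. TGATGNAA, a composite element of the CHOP and ATF factors, was found in 0 of the 32 windows and in 3.97% of all windows. These matches are a description of letters, and no binding was measured.

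T cells from tumor held more RNA for the import machinery than T cells from spleen of the same recipients, in both arms. In the MitoPositive arm 23 of 30 members rose and 1 fell, against 28.5% of all 11905 genes tested higher and 28.4% lower (edgeR quasi-likelihood test, adjusted p under 0.05). In the MitoNegative arm 19 of 30 rose and the other 11 did not pass, against a background of 20.2% higher. The median log2 fold change of members was 0.68 and 0.57 in the 2 arms, while medians over all genes lay between -0.08 and 0.07 in all comparisons. All 19 members that rose in the MitoNegative arm also rose in the MitoPositive arm, where 17.6% of all genes rose in both. Comparisons with tumor, spleen and culture share samples with each other, so their counts are not separate evidence.

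Hspd1 of the matrix chaperonin had the largest tumor minus spleen difference of the 30 members in both arms. Its MitoPositive spleen samples of donors 1, 2 and 3 were at 141, 133 and 121 CPM, against 538, 445 and 437 CPM in tumor. In the MitoNegative arm it stood at 187, 139 and 141 CPM in spleen and 612, 567 and 650 CPM in tumor. Every tumor sample lay above every spleen sample, and the gap between the nearest samples was wider than the spread within either place. Hspd1 rose by 1.80 ± 0.12 (log2, SE) in the MitoPositive arm (edgeR adjusted p = 1.5e-07) and by 1.96 ± 0.12 in the MitoNegative arm (adjusted p = 6.7e-08), higher in 3 of 3 donors in each. Its lid Hspe1 went from 328, 359 and 265 CPM to 811, 753 and 667 CPM in the MitoPositive arm, and from 374, 284 and 291 CPM to 821, 868 and 880 CPM in the MitoNegative arm. Hspe1 rose by 1.18 ± 0.13 and 1.42 ± 0.13, with adjusted p of 5.6e-06 and 1.7e-06 by edgeR, and again no tumor sample fell among the spleen samples. The ratio of Hspd1 to Hspe1 CPM within a sample had a median of 0.406 in culture, 0.469 in spleen and 0.66 in tumor (6 samples each), and the 6 tumor ratios, 0.591 to 0.745, all exceeded the highest spleen ratio of 0.498. That ratio compares change in 1 gene with change in the other, since a 3' count says nothing of their molar amounts.

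**Figure D1:**
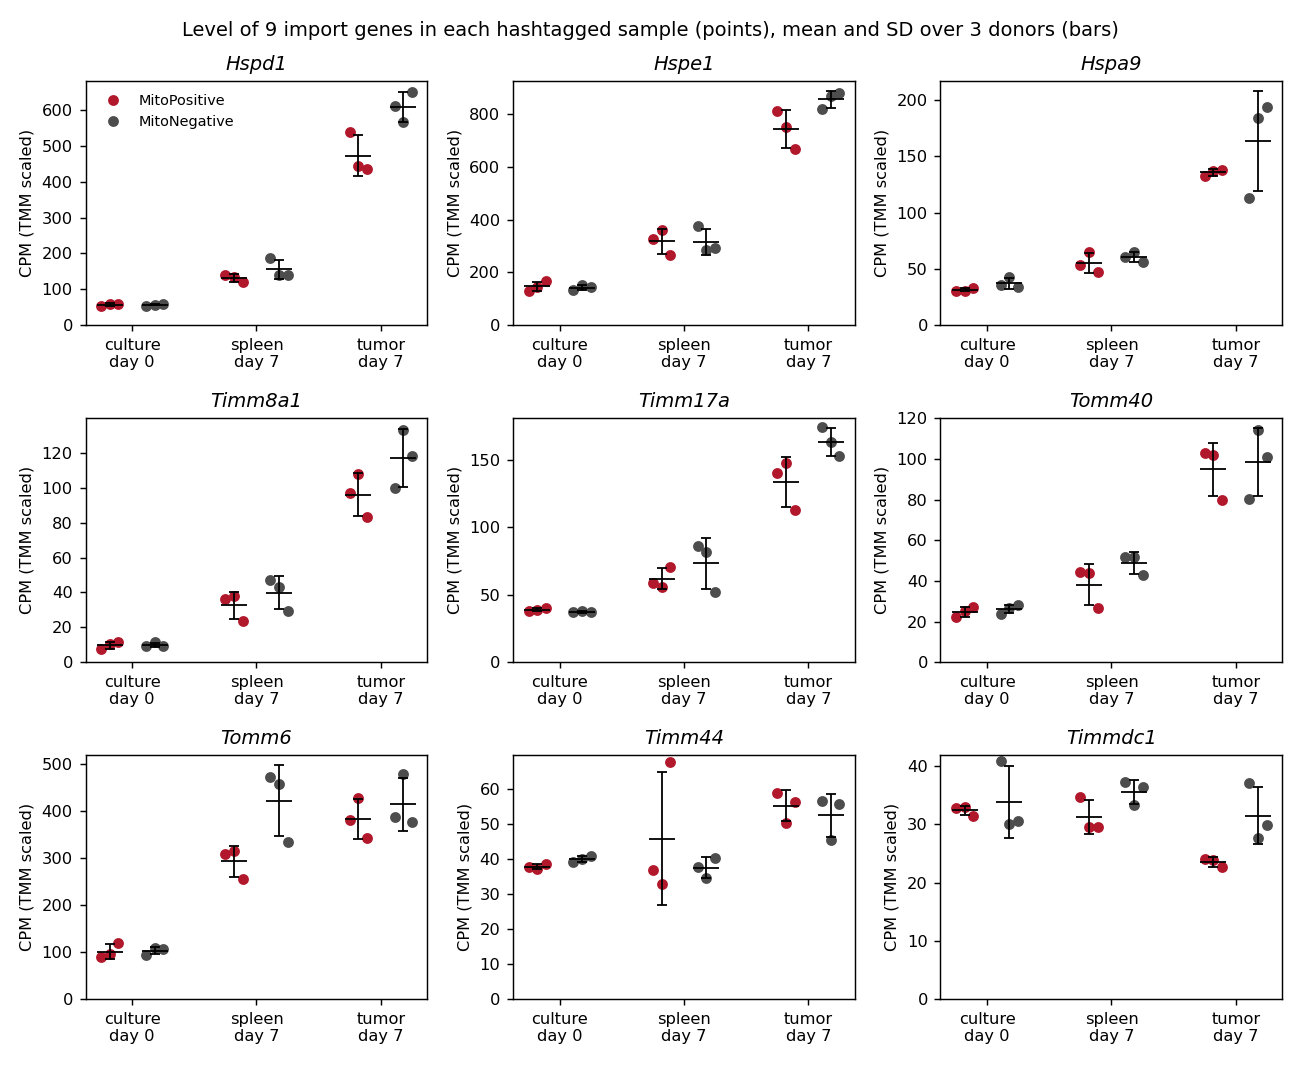
CPM (TMM-scaled UMI counts per 1e6) of 9 members in culture, spleen and tumor, 1 point per sample, with MitoPositive samples in red and MitoNegative samples in grey, and bars at the mean ± SD of 3 donors. Hspd1, Hspe1, Hspa9, Timm8a1 and Timm17a step up from culture to spleen to tumor with no overlap of the 6 samples per place, Tomm6 gains most between culture and spleen, and Timmdc1 shows no such steps.

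On the presequence route, Hspa9 (mitochondrial Hsp70, the ATPase of the import motor) was at 53.7, 64.8 and 47.1 CPM in MitoPositive spleen samples and 132, 137 and 138 CPM in MitoPositive tumor samples, and at 60.5, 65.1 and 55.9 against 113.2, 184 and 194 CPM in the MitoNegative arm. All 6 tumor samples were above all 6 spleen samples, although the MitoNegative tumor sample of donor 1, the one of 30 cells, stood well below the other 2 of its group. Hspa9 rose by 1.19 ± 0.15 and 1.44 ± 0.15 (edgeR adjusted p = 2.1e-05 and 6.2e-06). Of its partners in the motor, the nucleotide exchange factor Grpel1 rose by 0.65 and 0.60. Timm44, which anchors the motor to the channel, passed in both arms at 0.47 and 0.43, but in the MitoPositive arm donor 3 went from 67.7 to 56.3 CPM, and the difference was -0.09 (adjusted p = 0.81) outside cycling clusters. In both arms the Timm44 call was lost without donor 1 (edgeR adjusted p = 0.19 and 0.14) and without donor 2 (0.27 and 0.13), and in the MitoNegative arm also without donor 3 (0.063).

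Of the 5 measured TIM23 genes, 4 rose in each arm. Timm17a, a channel subunit, was at 58.6, 56.1 and 70.7 CPM in MitoPositive spleen and 140, 148 and 112.8 CPM in MitoPositive tumor, and at 86.4, 81.5 and 51.9 against 174, 163 and 153 CPM in the MitoNegative arm, with no overlap between places. It rose by 1.22 ± 0.15 and 1.15 ± 0.15 (edgeR adjusted p = 1.8e-05 and 3.6e-05), while its paralog Timm17b rose by 0.78 and 0.70. Timm50, the receptor that hands presequences to the channel, rose by 1.30 ± 0.21 and 1.04 ± 0.22, and the channel protein Timm23 by 1.07 ± 0.16 and 1.01 ± 0.16. Timm21, which links TIM23 to the respiratory chain, had differences of 0.28 and 0.17 and did not pass. The MitoPositive spleen sample of donor 3, with 49 cells and 323344 UMIs, held low values for some of these genes, which at that depth rest on few UMIs. Timm23 was at 58.9 CPM there and at 120 to 159 CPM in the other 5 spleen samples, and Timm50 at 8.84 CPM against 22.5 to 42.4 CPM. The processing peptidase subunits Pmpca and Pmpcb rose by 0.71 and 0.86 in the MitoPositive arm. In the MitoNegative arm Pmpcb rose by 0.56, and Pmpca, at 0.39, missed the threshold (edgeR adjusted p = 0.078).

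At the outer membrane, Tomm40, the channel itself, was at 44.2, 43.8 and 26.5 CPM in MitoPositive spleen and 103, 102 and 79.7 CPM in MitoPositive tumor, and at 51.8, 51.8 and 42.8 against 80.5, 114 and 101 CPM in the MitoNegative arm. It rose by 1.18 ± 0.14 and 1.05 ± 0.14 (edgeR adjusted p = 1e-05 and 5.2e-05), with all tumor samples above all spleen samples. The receptor Tomm20, which recognises presequences, rose by 0.68 ± 0.12 and 0.79, and Tomm70a, which receives carrier proteins with their chaperones, by 0.57 and 0.42. Tomm22, the central receptor, rose by 0.35 in the MitoPositive arm and did not pass in the MitoNegative arm at 0.19. The small subunits split: Tomm5 rose by 0.83 and 0.94 and Tomm7 by 0.77 and 0.35, whereas Tomm6 rose by 0.36 ± 0.11 in the MitoPositive arm and differed by -0.04 in the MitoNegative arm. Tomm40l, a paralog of Tomm40 at 4.44 to 17.7 CPM across samples, and Tomm34, a cytosolic cochaperone, did not pass in either arm.

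Among the small TIM chaperones, 4 of 6 rose in each arm, Timm8a1, Timm8b, Timm9 and Timm13. Timm8a1 was at 36.3, 38.0 and 23.6 CPM in MitoPositive spleen and 96.7, 108 and 83.4 CPM in MitoPositive tumor, and at 47.3, 43.1 and 29.4 against 100, 133 and 118 CPM in the MitoNegative arm. The lowest tumor sample was above the highest spleen sample by more than the range of the spleen samples. Timm8a1 rose by 1.46 ± 0.15 and 1.58 ± 0.15 (edgeR adjusted p = 4e-06 and 3.2e-06). Its partner in the assembled chaperone, Timm13, rose by 0.67 and 0.70, and Timm8b, a paralog of Timm8a1, by 0.95 and 0.66. Timm9 rose by 0.54 and 0.59, but Timm10, with which it forms a ring, had differences of 0.28 and 0.39 that did not pass (edgeR adjusted p = 0.13 and 0.068), and Timm10b had differences of 0.02 and -0.05. Timm22, the carrier insertion channel, rose by 0.58 in the MitoPositive arm. Its partner Timm29 did not pass in either arm and had 0 UMIs in the 30-cell tumor sample, which allows up to 6.53 CPM (3 UMIs, counting error only).

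Timmdc1, taken by its prefix, serves complex I assembly and not import, and it was the 1 member that fell. It was at 34.7, 29.6 and 29.5 CPM in MitoPositive spleen and 24.1, 23.9 and 22.6 CPM in MitoPositive tumor, with no overlap, a change of -0.44 ± 0.13 (edgeR adjusted p = 0.011). The difference ran from -0.79 to -0.37 over 14 alternatives and its call was lost in 4 of them, without donor 1 (-0.37, adjusted p = 0.15), without donor 2 (-0.49, adjusted p = 0.12), in thinned cells (-0.48, adjusted p = 0.058) and in cells without S or G2/M UMIs (-0.64, adjusted p = 0.069). The MitoNegative difference of -0.23 did not pass.

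UMIs per cell and stress genes moved with these differences in both arms, and cell cycle genes did so in the MitoPositive arm. In that arm the share of cells in cycling clusters was 42.4% to 69.4% in tumor samples and 2.36% to 6.12% in spleen samples. In the MitoNegative arm it was 18.8% to 63.4% in tumor and 12.2% to 25.99% in spleen. Of 12 S phase genes, 12 rose in the MitoPositive tumor samples against spleen and 1 in the MitoNegative arm. The 12 G2/M genes had a median log2 difference of 1.41 in the MitoPositive arm, where 9 rose, and of -0.47 in the MitoNegative arm. Outside cycling clusters, 17 members were higher and 1 lower in the MitoPositive arm, where the same fit called 19.9% of genes higher and 17% lower, and 17 and 1 in the MitoNegative arm, against 19.2% and 17.5%. In MitoPositive cells with no S or G2/M UMI among an equal number of drawn UMIs, 11 members were higher, against 14.2% of genes. Timm8a1 (0.59, edgeR adjusted p = 0.11) and Timm50 (0.72, adjusted p = 0.055) were no longer called. That fit also lacked the MitoPositive spleen sample of donor 3, which was left out for holding 19 such cells. Cells of 3000 or more UMIs were also thinned to 3000 UMIs, with shallower cells left out. In these, 16 members were higher in the MitoPositive arm, against 22% of genes. In the MitoNegative arm 12 were higher and 1 lower, against 11.7% and 10.9%. Cytosolic heat shock genes rose alongside (19 of 19 and 17 of 19), as did growth and nucleolar genes (11 of 12 in each arm), immediate early genes (9 of 9 in each arm) and stress regulators (7 of 11 and 9 of 11). The part of these in the members' differences was not tested.

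RNA of other cell types was present at these levels. The 10 myeloid markers summed to 3.79 to 8.94 CPM in culture, 135 to 839 CPM in spleen and 41.4 to 324 CPM in tumor samples. The 5 B cell markers summed to 70.7 to 1430 CPM in spleen and 36.6 to 82.7 CPM in tumor, and the 6 natural killer and gamma delta T cell markers to 97.8 to 224 CPM and 18.3 to 126 CPM. The 8 melanoma markers came to at most 9.98 CPM in tumor, the 10 stromal markers to at most 6.12 CPM in any sample, the 2 CD4 T cell markers to at most 16.7 CPM and the 4 erythroid markers to at most 142 CPM, both in spleen. Among the melanoma markers, Tyr had 0 UMIs in tumor samples, while Mitf had 54, Gpnmb 48, Pmel 41, Mlana 25 and Dct 22. Tyr had 4 UMIs in culture and 12 in spleen. Of the stromal markers, Col3a1 and Lum had 0 UMIs in all samples, while Lepr had 31 in tumor and Col1a1 13 in spleen. The myeloid sum was highest, at 839 CPM, in a spleen sample, and its part in the members' values was not tested.

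**Figure D2:**
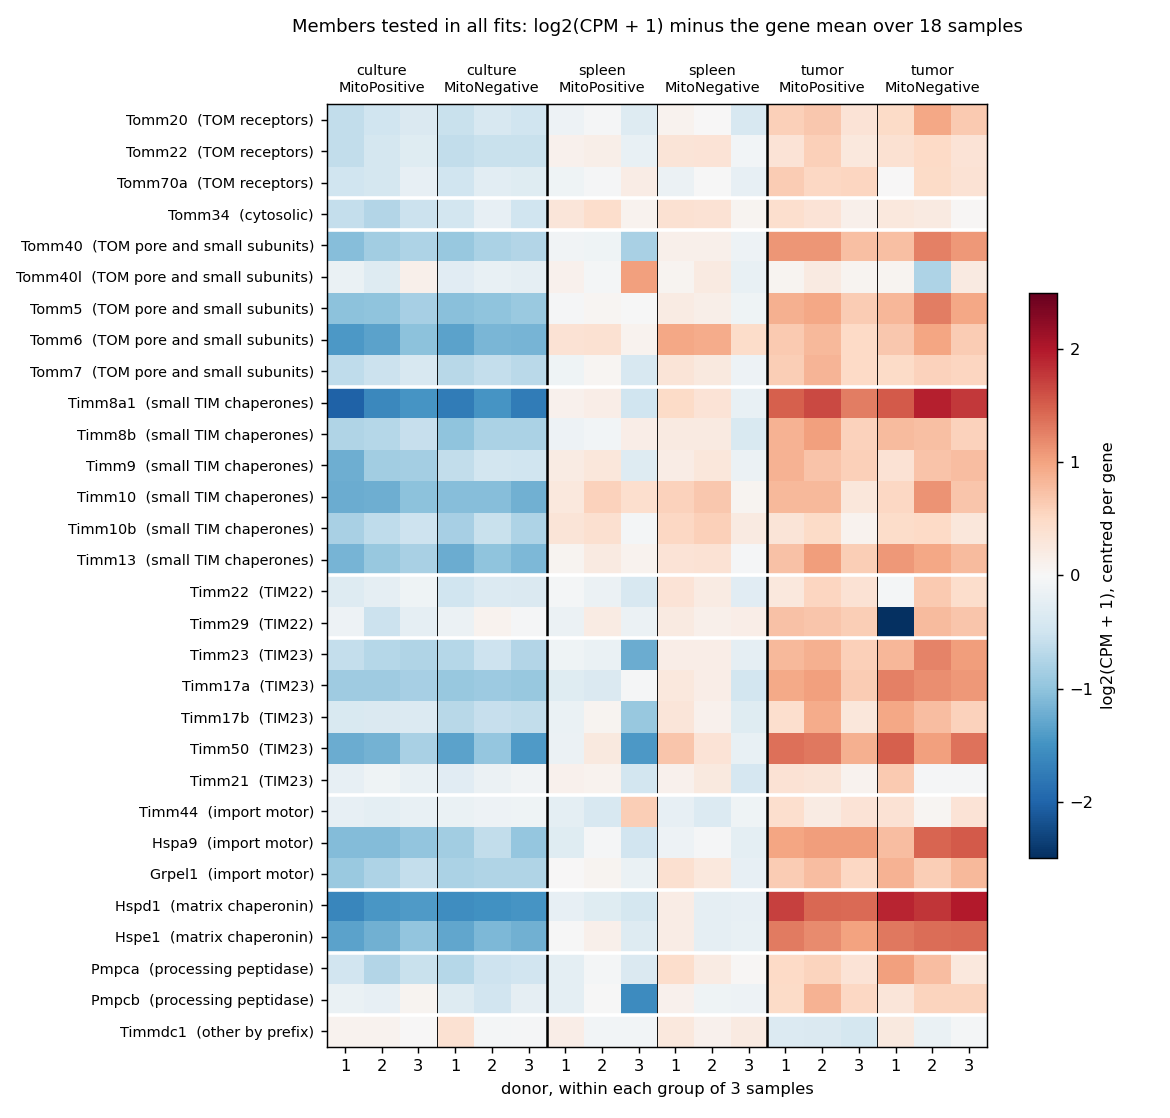
Log2(CPM + 1) of the 30 tested members, centred on each gene's mean over the 18 samples, with rows ordered by role and columns by place, arm and donor. Most rows pass from low in culture to high in tumor, with spleen between, and Tomm40l, Timm29 and Timmdc1 are the members whose tumor and culture samples overlap.

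Spleen T cells at day 7 also held more of this RNA than cultured cells. In the MitoPositive arm 22 of 30 members rose, against 23.8% of 12754 genes, and in the MitoNegative arm 23 rose, against 33% (edgeR, adjusted p under 0.05). The median member difference was 0.50 and 0.80 on the log2 scale. In both arms together 21 members rose, against 20.1% of all genes. Day, library and place change together between these samples and cannot be told apart, so the values give the size of the difference and not its source.

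The largest differences in both arms were those of Timm8a1, Timm10 and Tomm6. All 6 measured small TIM chaperones rose in both arms. Timm10 was at 9.51, 9.66 and 11.2 CPM in MitoPositive culture and 29.1, 35.96 and 32.4 CPM in spleen, and at 11.02, 10.87 and 9.92 against 36.3, 38.9 and 25.2 CPM in the MitoNegative arm. The culture samples lay close together and every spleen sample was above all of them. Timm10 rose by 1.55 ± 0.13 and 1.65 ± 0.13 (edgeR adjusted p = 7e-08 and 5.1e-09), Timm8a1 by 1.77 ± 0.16 and 1.99 ± 0.15, Timm9 by 1.17 ± 0.13 and 0.66, Timm13 by 1.06 ± 0.11 and 1.35 ± 0.11, Timm10b by 0.91 ± 0.10 and 1.17 ± 0.09, and Timm8b by 0.52 and 0.92.

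Tomm6, a small subunit that stabilises the TOM complex, rose by as much. It was at 89.3, 95.5 and 119 CPM in MitoPositive culture and 309, 315 and 256 CPM in spleen, and at 95.3, 109 and 107 against 473, 458 and 335 CPM in the MitoNegative arm. Every spleen sample was above every culture sample, with a change of 1.52 ± 0.11 and 2.01 ± 0.11 (edgeR adjusted p = 1.3e-08 and 1.1e-10). The antisense gene Tomm6os overlaps Tomm6, and their reads are separated only as far as the authors' counting used strand. Tomm34 rose here as well (0.92 ± 0.10 and 0.66), whereas its tumor minus spleen differences did not pass.

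The chaperonin and the motor ATPase also rose. Hspd1 stood at 52.4, 58.7 and 60.3 CPM in MitoPositive culture and at 54.8, 56.9 and 58.2 CPM in MitoNegative culture, and rose by 1.22 ± 0.10 and 1.45 ± 0.10 into spleen (edgeR adjusted p = 6.7e-08 and 1.3e-09). Hspe1, at 130 to 167 CPM in culture, rose by 1.14 ± 0.12 and 1.15 ± 0.12, and Hspa9, at 30.5 to 42.9 CPM in culture, by 0.90 ± 0.13 and 0.71. Timm50 of TIM23 rose by 1.01 ± 0.21 and 1.64 ± 0.20 (edgeR adjusted p = 0.00059 and 1.2e-06). In the MitoPositive arm, however, the donor 3 spleen sample, whose Timm50 value rests on few UMIs, was not above its culture sample. The Timm50 call in that arm was lost without the day 7 samples of donor 2 (0.63, adjusted p = 0.054). Whether the step into spleen and the step into tumor differ in size was not tested for any member. Timm44 did not pass in either arm (0.01 and -0.10), nor did Timm21, Timm29, Tomm40l, Pmpcb or Timmdc1. Timm17b and Timm22 rose in the MitoNegative arm (0.71 and 0.54) and did not pass in the MitoPositive arm (0.15 and 0.03), and Tomm70a rose in the MitoPositive arm (0.33) with a MitoNegative difference of 0.23 (adjusted p = 0.056).

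**Figure D3:**
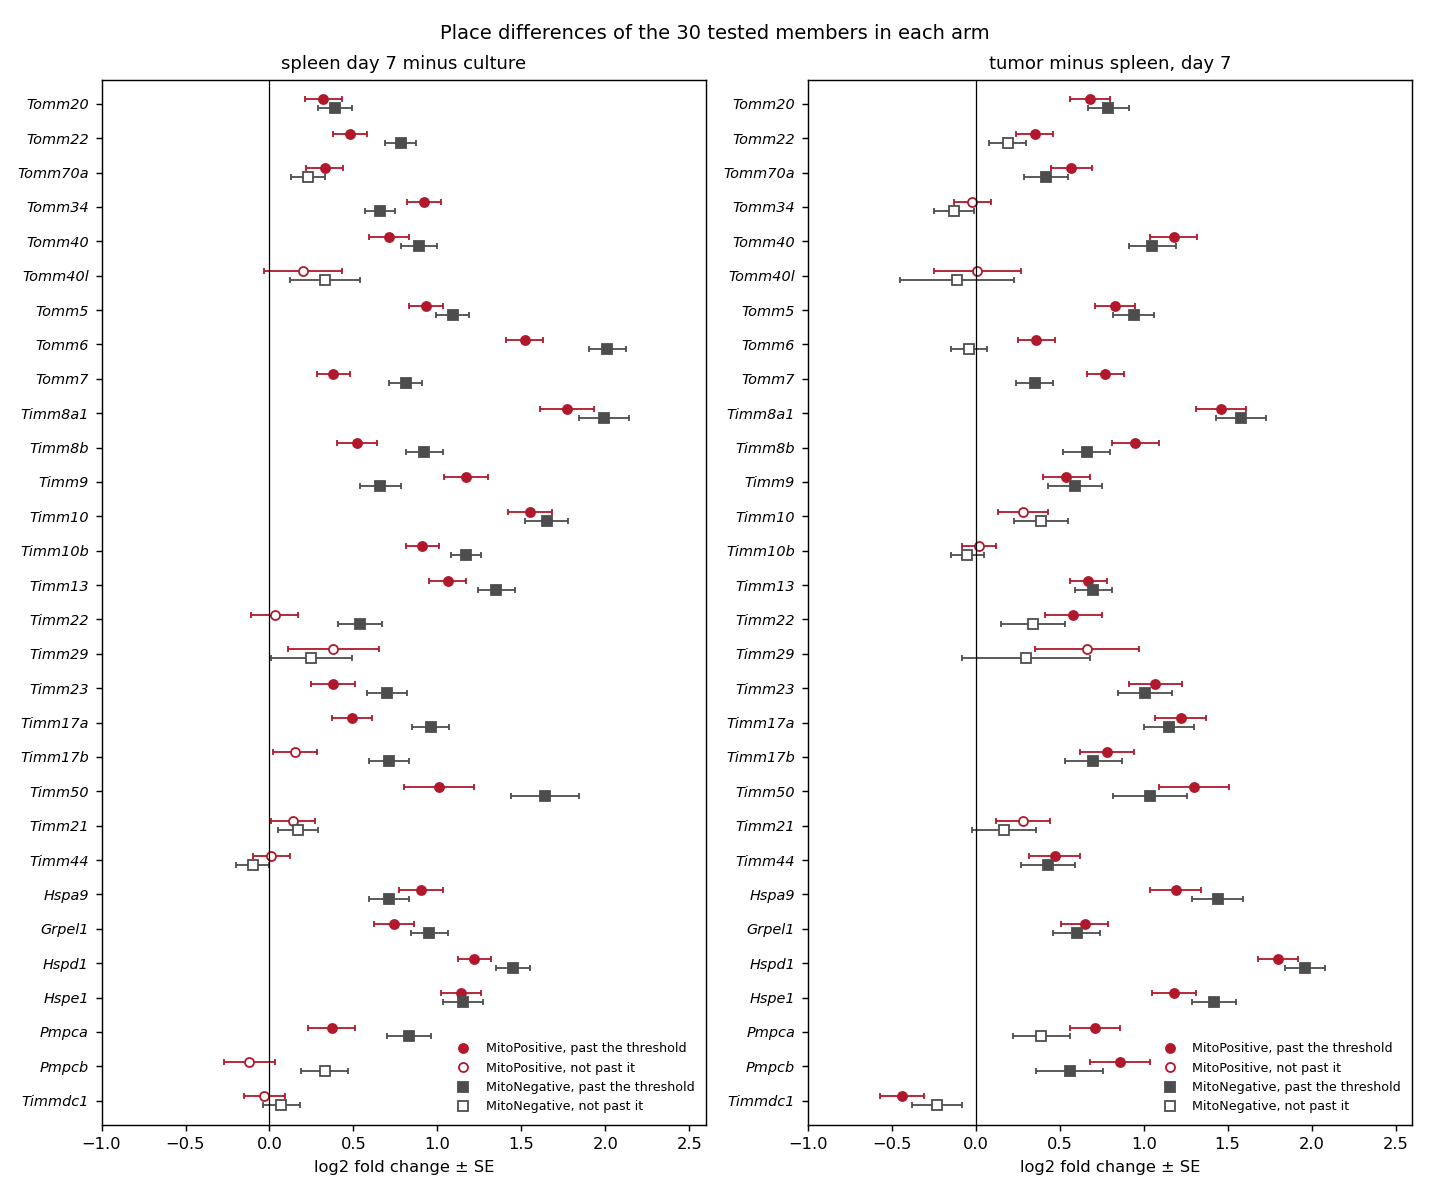
Log2 fold change ± SE of each tested member for day 7 spleen minus culture (left) and tumor minus spleen (right), MitoPositive arm in red and MitoNegative arm in grey, filled where the edgeR adjusted p was under 0.05. Timm8a1, Timm10 and Tomm6 lie farthest right in the left panel, Timm10b lies near 0 in the right panel (0.02 and -0.05), and Hspd1, at 1.80 and 1.96, leads the right panel.

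The difference between culture and tumor spans both steps. In the MitoPositive arm 28 of 30 members were higher and 1 (Timmdc1, -0.44, edgeR adjusted p = 0.0018) lower, against 36.8% of genes higher and 35.4% lower. In the MitoNegative arm 26 were higher and the other 4 did not pass, against 32.8% of genes higher. These 26 were higher in both arms, against 30% of genes. Timm8a1, at 7.58 to 11.5 CPM in all culture samples, rose by 3.26 ± 0.14 and 3.61 ± 0.17, a 9.61-fold and a 12.2-fold change. Hspd1 rose 8.23-fold in the MitoPositive arm and 10.9-fold in the MitoNegative arm, Timm50 5.03-fold and 6.54-fold, and Hspe1 5.06-fold and 6.05-fold. As for spleen, day and library differ along with place.

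Over the 3 places, 27 of 30 members had all 6 tumor samples above all 6 culture samples, where 24.5% of genes did. The other members were Tomm40l, Timm29 and Timmdc1. For spleen over culture the count was 17 (16.6% of genes) and for tumor over spleen 16 (15.1% of genes). No overlap at either step was found for 10 members, Hspd1, Hspe1, Hspa9, Grpel1, Timm17a, Timm8a1, Timm8b, Timm9, Timm13 and Tomm5, against 3.7% of genes. Summed over all members, CPM averaged 1780 ± 146 (SD, n = 3) in MitoPositive culture, 2910 ± 316 in spleen and 5220 ± 503 in tumor. In the MitoNegative arm the sums were 1730 ± 79.6, 3370 ± 495 and 5690 ± 288. Leaving out the 5 most abundant members (Tomm7, Hspe1, Tomm6, Hspd1 and Tomm20), the ranges were 894 to 1020 CPM in culture, 1340 to 1840 in spleen and 2190 to 2850 in tumor, again without overlap. Counted per cell, the members held 10.9 to 20.3 UMIs in culture, 16.9 to 28.2 in spleen and 63.7 to 118 in tumor, where cells also held more UMIs in all.

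Between MitoPositive and MitoNegative cells of 1 place, few members passed the test. The main culture fit took the samples as unpaired, although each donor gave a sample to each arm. In culture, directly after mitochondrial uptake, 1 of 30 members passed, against 9.26% of 11436 genes in either direction and 3.23% lower (edgeR, adjusted p under 0.05). That member was Timm9, at 13.7, 17.9 and 18.1 CPM in MitoPositive and 21.4, 24.1 and 23.5 CPM in MitoNegative cells, without overlap and lower in 3 of 3 donors (-0.47 ± 0.12, adjusted p = 0.027). The median member difference was -0.01. Hspd1 differed by 0.01 ± 0.08 (adjusted p = 0.97), Hspe1 by 0.03 ± 0.09, Tomm20 by -0.01, Tomm40 by -0.09, Timm23 by -0.05 and Timm17a by 0.05, and Hspa9 by -0.26 ± 0.10 (adjusted p = 0.13). With the donor as a block, 4 members passed (1 higher, 3 lower), where that fit called 12% of genes higher and 8.09% lower, among them Hspa9 (-0.26, adjusted p = 0.035). The call of Timm9 was lost under the other hashtag map (-0.30, adjusted p = 1.0) and without the donor 2 sample of either arm or the MitoNegative donor 3 sample (adjusted p = 0.061, 0.11 and 0.065). Over the same samples, 8 of 12 S phase and 12 of 12 G2/M genes were higher in MitoPositive cells, and cycling clusters held 3.99% to 8.59% of MitoPositive and 0.526% to 1.90% of MitoNegative cells, whose part in the result was not tested.

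In spleen at day 7, 1 of 30 members passed, against 4.55% of 11905 genes in either direction and 2.97% lower. Tomm6, with the values above, was lower in MitoPositive samples in 3 of 3 donors (-0.51 ± 0.11, edgeR adjusted p = 0.018), and the arms did not overlap. The median member difference was -0.17. Timm23 (-0.37 ± 0.16, adjusted p = 0.25), Timm17a (-0.37 ± 0.15, adjusted p = 0.20) and Hspd1 (-0.21 ± 0.12, adjusted p = 0.40) did not pass, nor did Hspe1 (0.03), Hspa9 (-0.06), Tomm20 (-0.06) or Tomm40 (-0.25). The Tomm6 call was lost without donor 1 (adjusted p = 0.28), without donor 2 (0.19) and without the donor block (0.10). Of 5 natural killer and gamma delta T cell markers, 3 were higher in MitoPositive spleen samples (median difference 2.46). Here 10 of 12 S phase and 9 of 12 G2/M genes were lower in MitoPositive samples. Cycling clusters held 2.36% to 6.12% of MitoPositive and 12.2% to 25.99% of MitoNegative cells. In cells with no S or G2/M UMI the Tomm6 difference was -0.37 (edgeR adjusted p = 0.33). That fit left out the MitoPositive sample of donor 3, which held 19 such cells.

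In tumor at day 7, edgeR called 0 of 30 members, against 0.193% of genes, with 4 members at an unadjusted p under 0.05, and DESeq2 called 1. The median member difference was -0.13. Hspd1, at 538, 445 and 437 CPM in MitoPositive and 612, 567 and 650 CPM in MitoNegative tumor samples, was lower in MitoPositive cells in 3 of 3 donors without overlap (-0.38 ± 0.11, edgeR adjusted p = 0.23), and it was the member DESeq2 called (-0.45, adjusted p = 0.0049). Hspe1 (-0.21 ± 0.12, adjusted p = 0.58), Hspa9 (-0.31 ± 0.14, adjusted p = 0.46), Timm23 (-0.31, adjusted p = 0.50), Timm17a (-0.30 ± 0.14, adjusted p = 0.47), Tomm20 (-0.17) and Tomm40 (-0.12) were on the same side and did not pass. In the same comparison 10 of 10 myeloid markers had negative differences (median -1.76, 8 at an unadjusted p under 0.05), as did 11 of 12 growth and nucleolar genes (median -0.29, 7 at an unadjusted p under 0.05), and the part of either in the members' values was not tested. Outside cycling clusters, where the donor 1 MitoNegative sample is dropped for holding 19 cells, 9 members were lower in MitoPositive tumor cells, against 3.76% of genes in that fit: Hspd1 (-0.93, adjusted p = 0.015), Timm8a1 (-1.03, adjusted p = 0.0074), Timm17a, Hspe1, Grpel1, Tomm5, Hspa9, Timm23 and Timmdc1. The median UMIs of these cells were 5474.5 to 7081 per MitoPositive sample and 9408 and 12664 in the 2 MitoNegative samples used, and the part of depth in this result was not tested.

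**Figure D4:**
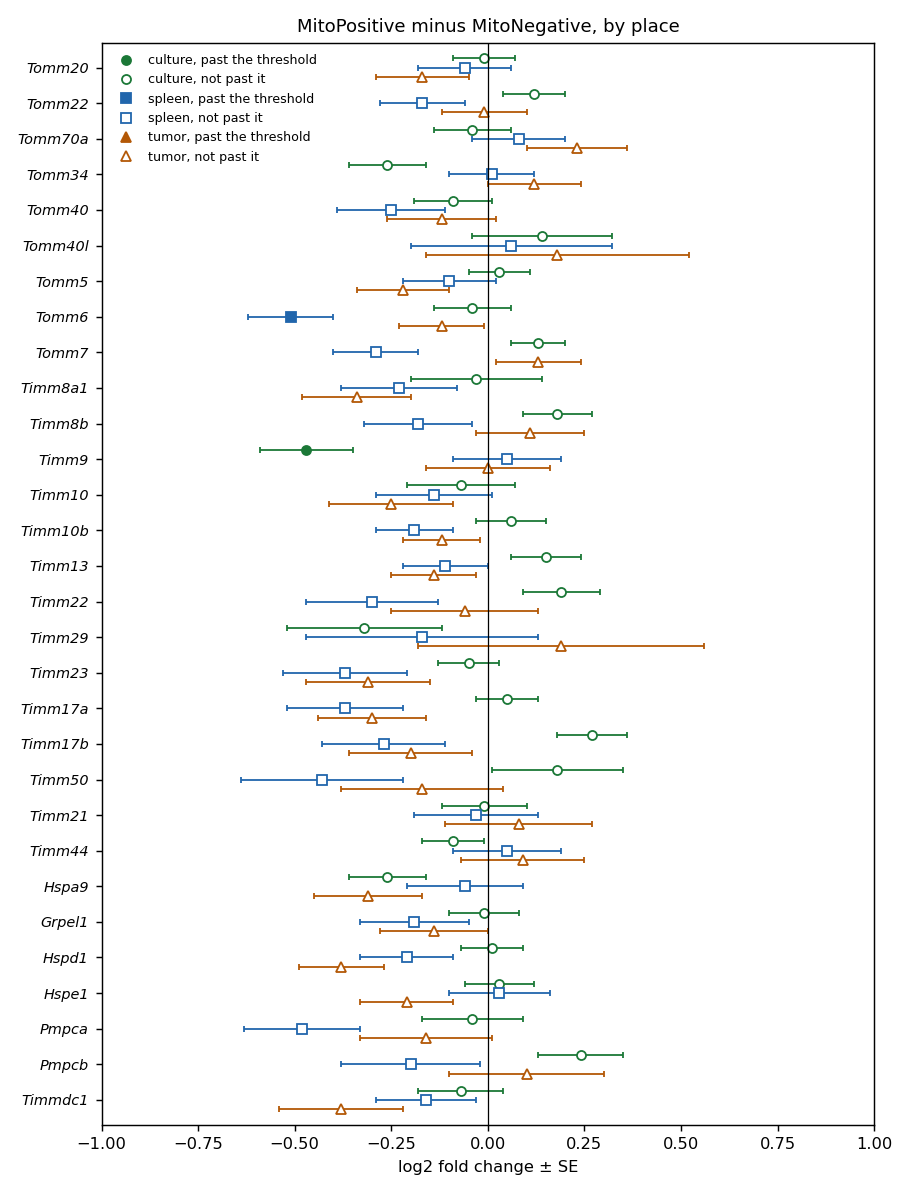
Log2 fold change ± SE of MitoPositive minus MitoNegative for each tested member, in culture (circles), spleen (squares) and tumor (triangles), filled where the edgeR adjusted p was under 0.05. Timm9 in culture (-0.47) and Tomm6 in spleen (-0.51) are the filled points. The median member difference is -0.17 in spleen and -0.13 in tumor.

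Whether the arm difference itself changed between places was tested with interaction terms. Between tumor and spleen, edgeR called 0 of 30 members against 0.0504% of genes, with 2 at an unadjusted p under 0.05 and 0 called by DESeq2, and member estimates ran from -0.25 to 0.42. Between tumor and culture it called 0 against 0.525%, with 5 at an unadjusted p under 0.05 and 1 called by DESeq2. Between spleen and culture 2 members passed, against 11% of genes in either direction and 7.46% lower. Tomm6 gained less in the MitoPositive arm by 0.49 on the log2 scale (-0.49 ± 0.16, edgeR adjusted p = 0.049), and Timm17b likewise (-0.56 ± 0.17, adjusted p = 0.045). Timm17b was at 31.1, 31.5 and 31.9 CPM in MitoPositive and 24.7, 26.9 and 26.4 CPM in MitoNegative culture, and at 36.01, 42.86 and 20.6 against 50.4, 44.1 and 33.0 CPM in spleen. Both calls lie just inside the threshold: Tomm6 lost its call in 12 of 14 alternatives and Timm17b in 9 of 14. Among others, both calls were lost without the day 7 samples of donor 1 (edgeR adjusted p = 0.19 and 0.32). Both were also lost without samples of under 50 cells (0.052 and 0.06), where 2 other members were called lower. The call of Tomm6 was also lost without the day 7 samples of donor 2 (0.18).

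Other genes of import and mitochondrial protein quality control moved in both directions. Of 26 such genes outside the members, 14 rose and 3 fell in MitoPositive tumor against spleen (median 0.37), and 11 rose and 2 fell in the MitoNegative arm (median 0.30). Of all genes tested, 28.5% rose and 28.4% fell in the MitoPositive arm, and 20.2% rose in the MitoNegative arm. Htra2, a protease of the intermembrane space, rose by 1.82 ± 0.23 and 1.43 ± 0.25, and the matrix protease Lonp1 by 1.30 ± 0.17 and 1.36 ± 0.18. The sorting proteins Mtx1 and Mtx2 rose by 1.01 and 1.00 in the MitoPositive arm, and the disulfide carrier Chchd4 by 1.20 ± 0.23 in the MitoNegative arm. Xpnpep3, a mitochondrial aminopeptidase, fell by 1.38 in the MitoNegative arm. From culture to spleen, 8 of these genes were higher and 6 lower in the MitoPositive arm, and 10 and 6 in the MitoNegative arm. Of all genes tested, 23.8% were higher in the MitoPositive arm and 33% in the MitoNegative arm. Romo1, a TIM23 partner, rose by 0.91 ± 0.11 and 1.32 ± 0.11, while Hscb, an iron-sulfur cochaperone, fell by 1.20 in the MitoPositive arm. Between the arms in culture, 1 of the 26 passed the edgeR test, against 9.26% of all genes. It was the inner membrane peptidase subunit Immp2l (-0.46 ± 0.11, edgeR adjusted p = 0.018). In spleen and tumor edgeR called 0, against 4.55% and 0.193% of all genes, with 3 and 1 at an unadjusted p under 0.05. DESeq2 called 1 in spleen (Dnajc15) and 0 in tumor. Immp2l and Dnajc15 are named after their values were seen.

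Over the 18 samples, the 10 genes outside the members whose log2 CPM followed Hspd1 most closely were Serpinb6b (Pearson r = 0.996), Hsp90aa1 (0.994), Hspa5 (0.992), Set (0.991), St13, Rars, Eif2s2, Sytl3, Metap2 and Tcp1 (0.989 for the last). Among members, Hspe1 (0.994), Timm17a (0.98), Timm8a1 (0.979), Tomm5 (0.977) and Hspa9 (0.972) were closest, and Tomm40l (0.115), Timm29 (-0.03) and Timmdc1 (-0.468) were farthest. The median r was 0.917 over the 30 members, with Hspd1 itself (1.0 by definition) among them, and -0.0551 over all 12754 genes. These 18 points fall into 3 places that differ in day, library and depth, so the values describe a shared order of places.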

How the data were processed

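RNA and hashtag antibodies were read from 4 libraries of the Chromium 3' v3.1 kit. The deposited matrices hold UMI counts per gene and barcode, not normalized, made by the authors with Cell Ranger 7.0.0 on mm10 (GRCm38), per the submitters' processing notes, which also name Seurat 4.0.5.

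Of 18092 barcodes, 17458 had at least 500 genes and under 15% mitochondrially encoded UMIs. Each barcode took the sample of its strongest hashtag, provided this reached 10 UMIs and was 3 times or more the second; the rest, among them barcodes with 2 strong hashtags (doublets), were dropped. Clusters (scanpy 1.11.5, leidenalg 0.10.2, resolution 0.5, made per day) with a T cell receptor complex UMI in under 50% of cells were left out (2 clusters). Over 50% of cells were cycling in 5 clusters, and those of them not left out were used for the cycling shares. UMIs of the remaining 16364 cells were summed per hashtagged sample, which is the replicate.

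Low-count genes were removed by filterByExpr and libraries scaled by TMM before the quasi-likelihood test of edgeR 4.0.16 (R 4.3.3), with Benjamini-Hochberg adjustment over all genes kept and a threshold of 0.05. Culture was fitted alone on 6 samples with no donor block in the main fit. Tumor and spleen were fitted on the 12 day 7 samples with the donor as a block, and day 7 against culture on all 18 samples with the donor block at day 7. Donor numbers pair samples because they name the same mouse. Deviations from group means correlated at 0.07 to 0.24 within a donor at day 0 and -0.05 to 0.28 at day 7, and at -0.22 to 0.03 and -0.2 to 0.1 between donors. CPM are on TMM-scaled library sizes. Error is SE for a log2 fold change and SD for a mean. Tested on simulated counts of 11905 genes, the fit recovered 74% of 2-fold and 85% of 4-fold changes for MitoPositive tumor against spleen, and 41% and 73% for its interaction with the arm.

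Named in each comparison with values were up to 8 members past the threshold with the largest change, and Hspd1, Hspe1, Hspa9, Tomm20, Tomm40, Timm23 and Timm17a in the arm comparisons. The members and all gene lists were chosen with earlier results of these data known. Alternatives were DESeq2 1.42.0 size factors and test, no count filter, HTODemux calls (Seurat 5.3.0, quantile 0.99, the same call for 62.4% of barcodes), no mitochondrial limit, all clusters, no cycling clusters, spleen or tumor samples fitted alone, CPM on library totals, the other culture hashtag map, the block, and each replicate left out. Chosen after seeing the data were cells thinned to 3000 UMIs, cells without S or G2/M UMIs, and leaving out samples of under 50 cells. The thinned cells and the cells without S or G2/M UMIs were taken only from cells of 3000 or more UMIs. A sample of under 20 cells in a setting was left out of it, such as the MitoNegative tumor sample of donor 1 (19 cells) without cycling clusters.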

Additional observations from a re-analysis of the deposited data

Results flagged for a closer look

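For 2 members the difference between MitoPositive and MitoNegative samples in spleen at day 7 differed from that in culture by the interaction term of the 18-sample edgeR fit. Tomm6 had an interaction of -0.49 ± 0.16 (log2, SE, adjusted p = 0.049), since its MitoPositive gain from culture to spleen was 1.52 and its MitoNegative gain 2.01. Timm17b had an interaction of -0.56 ± 0.17 (adjusted p = 0.045), with gains of 0.15 and 0.71. Day, library and place cannot be told apart in either, and the share of cells in cycling clusters, higher in MitoPositive cells in culture (3.99% to 8.59% against 0.526% to 1.90%) and lower in spleen (2.36% to 6.12% against 12.2% to 25.99%), moved along with them. Outside cycling clusters the interactions were -0.35 (adjusted p = 0.12) and -0.26 (adjusted p = 0.46).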

How the results depend on the processing

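Over all 30 members and all alternatives, called fold changes stayed called in the same direction in 1865 of 2017 cases and missed the threshold in 152. Of these, 6 changed sign, none of them called: without cycling clusters Timm44 in the MitoPositive arm (-0.09 for tumor against spleen, -0.12 for tumor against culture), Timm21 (-0.31) and, in the MitoNegative arm, Tomm34 (-0.04) for tumor against culture, and in cells without S or G2/M UMIs Timm21 (-0.23) for tumor against culture and Timm9 (0.00) for tumor against spleen. Without donor 2 the tumor minus spleen calls of Tomm22, Tomm6, Timm22, Timm44 and Timmdc1 were lost in the MitoPositive arm and those of Tomm70a, Timm44 and Pmpcb in the MitoNegative arm. Without donor 3, those of Tomm70a, Tomm7, Timm9, Timm44, Grpel1 and Pmpcb were lost in the MitoNegative arm. Where day 7 was compared with culture, leaving out a donor removed its day 7 samples and kept its culture samples. Spleen minus culture calls in the MitoPositive arm were then lost for Tomm20 and Timm23 without donor 1 or 2. Those of Tomm70a, Tomm7, Timm50 and Pmpca were lost without donor 2, and the MitoNegative tumor minus culture call of Timm44 without donor 1 or 3. Members called in tumor against spleen numbered 11 to 26 in the MitoPositive arm and 13 to 22 in the MitoNegative arm. The low of 11 came from cells without S or G2/M UMIs, where 27.5% of genes were called in either direction. MitoNegative tumor cells were too few to enter that setting. The MitoPositive spleen sample of donor 3, with 19 such cells, was left out of it as well. In culture, 0 members were called by DESeq2, in thinned cells, in cells without S or G2/M UMIs and under the other hashtag map, 4 with the donor as replicate block, and 0 to 1 with 1 sample left out (0 without MitoPositive donor 2, MitoNegative donor 2 or MitoNegative donor 3). Between arms in spleen, 0 were called with HTODemux, in cells without S or G2/M UMIs and with no replicate block, and 0 to 2 with 1 donor left out (2 without donor 3). Between arms in tumor, 1 was called by DESeq2 and 9 without cycling clusters. The interaction of spleen against culture gave 1 call with DESeq2 size factors, a higher one (Timm9, 0.59, adjusted p = 0.034) with neither Tomm6 nor Timm17b called, 1 lower call with HTODemux, no mitochondrial limit or all clusters, 0 with no count filter, without cycling clusters, in thinned cells, in cells without S or G2/M UMIs and with no replicate block, and 0 to 6 with 1 donor left out (0 without donor 1, 1 without donor 2, 6 without donor 3). That of tumor against culture gave 1 call by DESeq2 and 8 without cycling clusters (1 higher and 7 lower, against 3.76% and 3.59% of genes). The block changed no other count by over 1.5 times. The causes of these changes were not tested.

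Among culture arm differences that were not called, Hspd1 turned to -0.01 with HTODemux, -0.16 without cycling clusters, -0.15 in thinned cells, -0.27 in cells without S or G2/M UMIs and -0.08 under the other map (-0.04 to 0.06 with 1 sample left out). Hspe1 gave -0.02, -0.03, -0.16, -0.08 and -0.19 in the same order (-0.08 to 0.10 left out), Timm17a -0.01 with HTODemux, -0.05 without cycling clusters, -0.12 in cells without S or G2/M UMIs and -0.01 under the other map, and Tomm20 0.02 in cells without S or G2/M UMIs (-0.08 to 0.04). With 1 sample left out Timm23 ran from -0.10 to 0.02, and in spleen Hspe1 ran from -0.14 to 0.14 and Tomm20 from -0.09 to 0.01. On library totals in place of TMM, summed member CPM were 1930 in MitoNegative culture and 4680 and 5250 in MitoPositive and MitoNegative tumor, and the chaperonin sums 222, 1090 and 1350. Samples of 30 and 49 cells set the depth limit. Without them all 24 tumor minus spleen calls of the MitoPositive arm and all 19 of the MitoNegative arm stayed called in the same direction.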
